A study of Mus musculus with 6 samples.

Results

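The potassium channel genes of the deposited table were taken as every row whose symbol begins with Kcn, without Kcnj8 and Kcnj10, which gave 83 of 19251 genes. All 83 were among the 19109 genes tested. Of the 83, 80 are annotated as protein coding and 3, Kcnd3os, Kcnmb4os2 and Kcnq1ot1, as antisense transcripts. The study's stated purpose was to learn how intermittent fasting acts on midbrain signalling in a Parkinson's disease model. Polyadenylated RNA of the substantia nigra was sequenced from C57BL/6 mice on intermittent fasting (3 libraries) and from C57BL/6 mice fed ad libitum (3 libraries). Every mouse in both groups carried rAAV-A53T-aSynuclein, a recombinant adeno-associated virus for the A53T form of alpha-synuclein, and no group without the virus was used here. The diets began 2 weeks after surgery and lasted 10 weeks. A fast of 24 hours began at 15:00, which was 2 hours before lights off, on 3 days a week. The ad libitum mice were moved between cages at the same times. The sources used here give no age, sex, vector promoter or delay from the last fast to dissection. Whether a library stands for 1 animal is not stated either, and p-values therefore measure only the spread between these libraries.

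Potassium channels let potassium ions leave or enter a cell along their gradient, and so set the resting potential, end action potentials and fix the pace of firing. Voltage-gated families (Kv1 to Kv4, Kv7 and the EAG family) open on depolarisation, calcium-activated channels (BK, SK and IK) open when calcium rises, inward rectifiers and K2P leak channels act near rest, and accessory subunits (Kv beta, KChIP, MinK, BK beta and the silent modifier subunits) change how the pores behave. In dopaminergic neurons of the substantia nigra, Kv4 channels with KChIP subunits and SK channels shape slow pacemaking, inward rectifiers gated by G proteins carry the inhibition by dopamine autoreceptors, and ATP-sensitive channels couple firing to metabolism. Glia have potassium channels of their own, among them K2P and inward rectifier channels.

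The libraries held 44392052, 42990234 and 46594066 estimated counts under fasting and 48106695, 48179706 and 46337950 with ad libitum feeding. Levels are counts per 1000000 (CPM) scaled by TMM factors, which correct for differences in library composition, and a gene was called when its adjusted p in edgeR's quasi-likelihood test was below 0.05. Defining markers of dopaminergic neurons were present, 10 of 10 were measured and 0 were called. Their summed level was 958, 1586 and 864 CPM under fasting, against 953, 894 and 2243 CPM with ad libitum feeding. It thus stood highest in ad libitum replicate 3 and next in fasting replicate 2. Markers of neighbouring regions differed between libraries, most of all within the ad libitum group. The summed level of 4 thalamic markers was 736 to 1273 CPM under fasting, against 1271, 81.6 and 394 CPM in ad libitum replicates 1, 2 and 3. Cholinergic markers summed to 5.99 to 16.3 CPM under fasting, against 8.64, 86.6 and 7.44 CPM in ad libitum replicates 1, 2 and 3. Hypothalamic markers summed to 108 to 145 CPM under fasting, against 25.7, 513 and 4.08 CPM in the same ad libitum replicates. Pmch alone held 432 CPM in ad libitum replicate 2, and Hcrt and Pomc were also highest there. Oxt and Avp were instead highest in fasting replicate 1, at 33.4 and 9.60 CPM, against 2.44 and 5.84 CPM in ad libitum replicate 2. In bulk RNA, fewer cells of a type and less RNA per cell cannot be told apart.

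Of the 83 potassium channel genes, 1 was called, the K2P channel gene Kcnk13, which fell under fasting. That is 1.2% of the members, and edgeR called 0.497% of all tested genes, 0.147% higher and 0.351% lower under fasting. At an unadjusted p below 0.05 there were 11 members, 13.3% of them, against 20.4% of all tested genes. Of the 11, 5 were higher under fasting, against 8.74% of all tested genes, and 6 were lower, against 11.6% of all tested genes. The fasting and ad libitum libraries did not overlap for 11 of 83 members (13.3%), against 27.5% of all tested genes. In 4 of these all fasting libraries were higher, against 12.5% of all tested genes, and in 7 all were lower, against 15% of all tested genes. Fold changes lay on either side of 0, with 43 members (51.8%) above and 40 below, while 49.1% of all tested genes were above 0. The median log2 fold change, fasting minus ad libitum, was 0.05 over the members and -0.005 over all tested genes. The shares of members at the unadjusted p and without overlap were thus below those of all tested genes.

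The precision of these fold changes was lower than for most genes. The median standard error was 0.22 on the log2 scale for the members and 0.12 for all tested genes. For 52 of 83 members the 95% interval of the log2 fold change stayed within 2-fold in either direction, and for the other 31 it reached past 2-fold. An adjusted p above the threshold does not show that such a gene stayed at the same level. By subfamily, the median log2 fold change was within 0.01 of 0 for SK and IK channels, at 0.0065, and K2P channels, at 0.0087. It was 0.03 for Kv1, 0.05 for Kv3, -0.02 for Kv4, 0.11 for Kv7, 0.09 for the EAG family and 0.05 for modifier subunits. Accessory subunits had medians of -0.07 for Kv beta, 0.10 for KChIP and -0.30 for the MinK family. Inward rectifiers stood at -0.10, with 8 of 11 genes below 0, BK genes at 0.20, with 3 of 4 above 0, and the Slack and Slo3 group at 0.18.

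**Figure D1:**
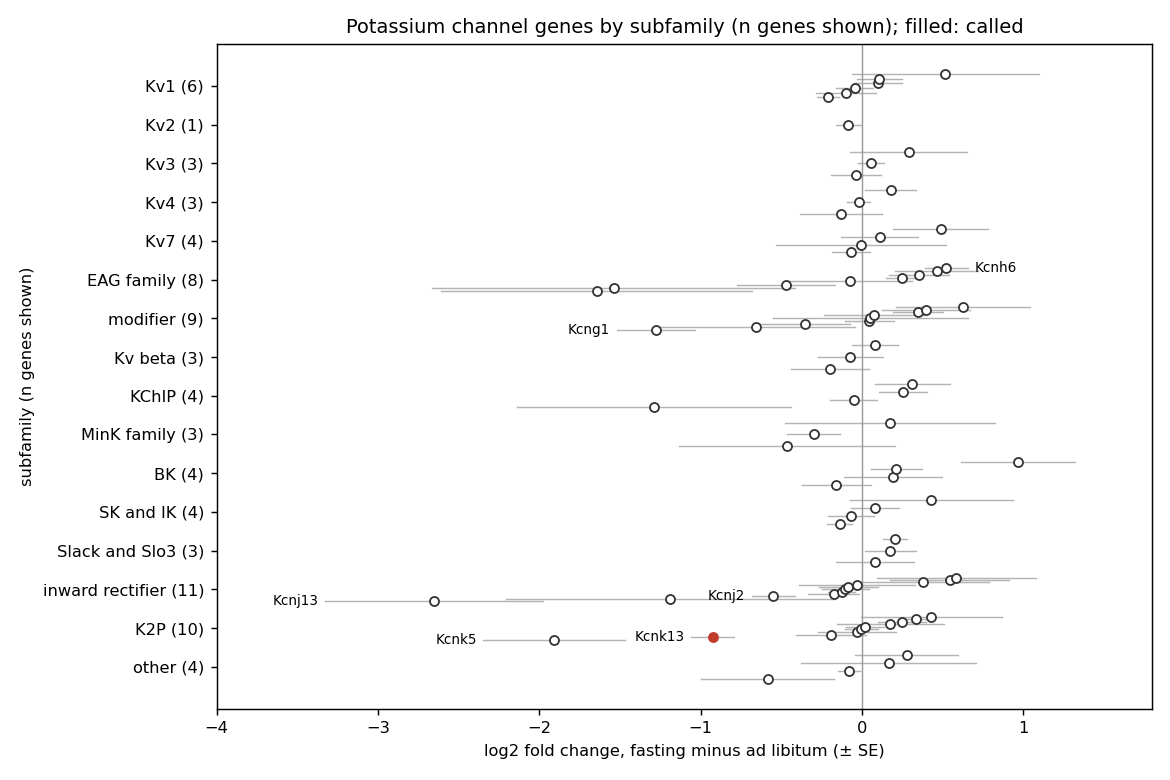
Log2 fold change, fasting minus ad libitum, of 80 of the 83 potassium channel genes by subfamily. Each point is a gene with a bar of 1 standard error on each side, filled where called, and the subfamilies lie on both sides of 0, with the largest negative values at Kcnj13 (-2.65) and Kcnk5 (-1.91) and the 1 called gene, Kcnk13, at -0.93.

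Kcnk13 (ENSMUSG00000045404) encodes a K2P leak channel, THIK1, which carries the resting potassium conductance of microglia. It stood at 10.7, 13.1 and 10.7 CPM under fasting, against 20.2, 25.9 and 19.6 CPM with ad libitum feeding. Every fasting library lay below every ad libitum library, and the gap between the groups was wider than the range within the fasting group. The means were 11.5 ± 1.37 CPM under fasting and 21.9 ± 3.48 CPM with ad libitum feeding (SD, n = 3 libraries each). The log2 fold change was -0.93, with a standard error of 0.14 and a 95% interval of -1.25 to -0.61, and the adjusted p in edgeR's quasi-likelihood test was 0.0496. The level was 1.90-fold higher in ad libitum libraries.

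The call of Kcnk13 rested on the setting, while its direction was the same in every setting tried. The log2 fold change ran from -1.03 to -0.79 when each library was left out in turn. The call remained without ad libitum replicate 1, with an adjusted p of 0.0282 in edgeR, and it was lost without any other library, at adjusted p-values of 0.0630 to 0.290 in edgeR. DESeq2 also called it, with an adjusted p of 1.3e-06, among 6 members (7.23%) and 7.25% of all genes. The other 5 in DESeq2 were Kcng1, Kcnh6, Kcnj13, Kcnj2 and Kcnk5. Of its 31-base words, 0% occur in transcripts of another gene, and no annotated exon overlaps its exons.

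The microglial markers Cx3cr1, P2ry12, Csf1r, Aif1 and Tmem119 were lower under fasting, as was Kcnk13. All 5 were lower in every fasting library than in any ad libitum library, 0 were called by edgeR, and all 5 had an unadjusted p below 0.05. Their summed level was 150, 152 and 154 CPM under fasting, against 181, 268 and 243 CPM with ad libitum feeding. Their median log2 fold change was -0.61. Within the groups the order differed, although both the sum and Kcnk13 were highest in ad libitum replicate 2. The sum was highest of the fasting libraries in replicate 3, and Kcnk13 in replicate 2. With ad libitum feeding the sum was lowest in replicate 1, and Kcnk13 in replicate 3. Oligodendrocyte markers were lower under fasting as well. All 6 were lower in every fasting library, 0 were called by edgeR, and they summed to 9434, 11839 and 10114 CPM under fasting, against 13373, 18182 and 13352 CPM with ad libitum feeding. As for Kcnk13, replicate 2 was the highest of its group in both diets. The direction was not particular to these 2 cell types. Astrocyte markers were lower in every fasting library for 3 of 5 genes, and pericyte and smooth muscle markers for 2 of 4. Endothelial markers were so for 0 of 3, and 15% of all tested genes were. The part of microglial, oligodendrocyte or other cell content in the level of Kcnk13 was not tested.

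Of the 6 members of smallest p, 5 were lower under fasting, and the promoters of 4 of those 5, Kcnk13, Kcnj2, Kcnk5 and Kcnj13, are shown so that the starts of these genes can be set side by side. They were chosen after the values were seen. No promoter is shown for Kcng1. Each sequence is from RefSeq on GRCm38.p6, runs 5′ to 3′ on the strand of the gene from 250 bases before its start to 50 after it, and has 3 motifs in capitals, the PU box GAGGAA, the GC box GGGCGG and the TATA box TATAAA, on either strand. The E-box CACGTG was searched too and is in lower case. Kcnk13 lies at chr12:99964249-99964548 on the plus strand, Kcnj2 at chr11:111065914-111066213 on the plus strand, Kcnk5 at chr14:20181733-20182032 on the minus strand and Kcnj13 at chr1:87394680-87394979 on the minus strand.
Kcnk13: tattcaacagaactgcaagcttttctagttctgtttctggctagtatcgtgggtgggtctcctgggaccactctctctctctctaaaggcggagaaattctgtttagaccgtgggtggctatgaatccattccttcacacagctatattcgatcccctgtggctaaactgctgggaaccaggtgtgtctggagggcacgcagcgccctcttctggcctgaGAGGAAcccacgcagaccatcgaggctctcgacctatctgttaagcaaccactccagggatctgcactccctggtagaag
Kcnj2: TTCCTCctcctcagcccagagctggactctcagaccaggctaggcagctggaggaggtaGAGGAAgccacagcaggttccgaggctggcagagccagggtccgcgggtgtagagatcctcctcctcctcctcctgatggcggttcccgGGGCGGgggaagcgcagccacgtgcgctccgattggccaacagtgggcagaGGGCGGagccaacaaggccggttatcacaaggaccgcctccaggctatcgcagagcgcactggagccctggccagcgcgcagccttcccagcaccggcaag
Kcnk5: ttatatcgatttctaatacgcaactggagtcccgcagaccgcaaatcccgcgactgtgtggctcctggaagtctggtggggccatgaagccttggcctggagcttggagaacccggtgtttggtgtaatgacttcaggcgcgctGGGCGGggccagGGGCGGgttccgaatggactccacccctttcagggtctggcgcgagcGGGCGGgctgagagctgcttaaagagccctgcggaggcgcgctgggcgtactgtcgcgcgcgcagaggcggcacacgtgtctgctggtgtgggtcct
Kcnj13: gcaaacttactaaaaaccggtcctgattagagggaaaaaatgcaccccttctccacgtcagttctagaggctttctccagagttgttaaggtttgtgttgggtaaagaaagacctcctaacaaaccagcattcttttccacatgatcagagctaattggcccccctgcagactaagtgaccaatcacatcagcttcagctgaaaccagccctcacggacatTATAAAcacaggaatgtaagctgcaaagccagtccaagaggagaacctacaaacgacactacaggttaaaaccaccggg

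No motif searched was found in all 4 promoters. Kcnk13 holds 1 PU box, the kind of site bound by the myeloid factor PU.1 in macrophages and microglia, whose first base lies 30 bases before the start. Kcnj2 holds 1 PU box on each strand and 2 GC boxes. Kcnk5 holds 3 GC boxes and 26 CpG sites, the most of the 4. Kcnj13 holds a TATA box that starts 29 bases before the gene and 5 CpG sites. The PU box occurs in 28.6% of the 84 promoters found for 60 of the 83 members, and in 26.8% of 16753 promoters of 13128 genes in the table, so it was about as frequent in both sets.

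The promoters of potassium channel genes had fewer CpG sites than promoters in general. The median was 9.5 CpG sites in 300 bases for the members and 18 for all genes of the table, while the median GC content was 59.7% in both. The ratio of observed to expected CpG had a median of 0.438 for the members and 0.701 for all genes. GC boxes occurred in 50% of member promoters and 57.0% of all promoters, the E-box in 8.33% and 9.06%, and the TATA box in 4.76% and 8.09%. The cyclic AMP response element TGACGTCA was found in 0% of member promoters and 2.67% of all promoters. Several promoters can belong to 1 gene, so these shares are descriptions without a test.

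Beside Kcnk13, 5 members had the smallest p-values, and none of these 5 was called. Kcng1 encodes a silent modifier subunit that alters Kv2 channels, and it stood at 2.07, 2.75 and 3.39 CPM under fasting, against 6.75, 8.18 and 5.001 CPM with ad libitum feeding. The groups did not overlap, and its log2 fold change was -1.28 ± 0.24 (SE), with an adjusted p of 0.0685 in edgeR. Kcnj2 encodes a strong inward rectifier that holds the resting potential, and its levels were 8.48, 11.1 and 9.70 CPM under fasting, against 12.4, 16.2 and 14.1 CPM with ad libitum feeding. Here too each fasting library was below each ad libitum library, and the log2 fold change was -0.55 ± 0.14 (SE), with an adjusted p of 0.0982 in edgeR.

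Kcnk5 and Kcnj13 had the largest fold differences and rested on few reads. Kcnk5, a K2P channel gated by pH, had 13, 11 and 29 estimated counts under fasting, against 44, 67 and 99 with ad libitum feeding. The groups did not overlap, and the log2 fold change was -1.91 ± 0.44 (SE), with an adjusted p of 0.0880 in edgeR. Kcnj13, an inward rectifier of choroid plexus and retinal pigment epithelium, had 3, 8 and 7 estimated counts under fasting, against 17, 77 and 29 with ad libitum feeding, and its log2 fold change was -2.65 ± 0.67 (SE), with an adjusted p of 0.104 in edgeR. Its ad libitum replicate 2 was the highest by far, and Ttr, the main choroid plexus transcript, was also highest there, at 17.1, 3.9996 and 14.2 CPM under fasting, against 9.93, 73.1 and 16.7 CPM with ad libitum feeding. The ependymal markers of the same list did not follow it. Foxj1 was highest in fasting replicate 3, at 15.8 CPM, against 14.6 CPM in ad libitum replicate 2. Ccdc153 was higher in every fasting library, at 4.68, 0.855 and 6.78 CPM under fasting, against 0.148, 0.413 and 0.0641 CPM with ad libitum feeding. An exon of Gigyf2 overlaps Kcnj13 on the opposite strand. Gigyf2 averaged 74.1 CPM under fasting and 72.2 CPM with ad libitum feeding, and the sources used here do not say if counting used strand. The same holds for the 27 members with an exon overlap on the opposite strand.

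Kcnh6 was the member of smallest p among those higher under fasting. It encodes an ERG channel whose slow gating limits repetitive firing, and it stood at 4.39, 4.86 and 4.46 CPM under fasting, against 2.75, 3.41 and 3.38 CPM with ad libitum feeding. Each fasting library was above each ad libitum library. The log2 fold change was 0.52 ± 0.13 (SE), with an adjusted p of 0.104 in edgeR.

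**Figure D2:**
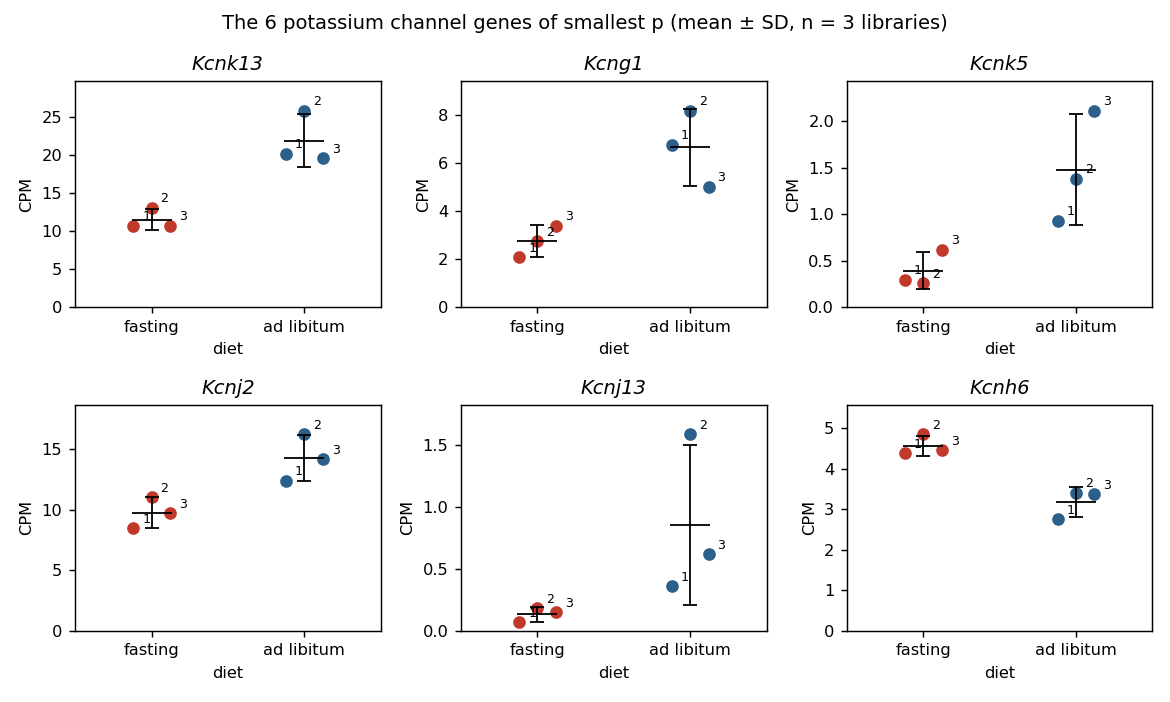
Level in CPM of the 6 potassium channel genes of smallest p, one panel each, with intermittent fasting on the left and ad libitum feeding on the right. Points are libraries marked with their replicate number, and bars are the mean ± SD, and in all 6 panels the groups do not overlap, with Kcnh6 the only one of the 6 that is higher under fasting.

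Of the 10 K2P genes, 5 lay above and 5 below 0. Kcnk9, a TASK leak channel of neurons that sets the resting potential and responds to acid, stood at 146, 154 and 138 CPM under fasting, against 131, 119.9 and 96.2 CPM with ad libitum feeding, with a log2 fold change of 0.34 ± 0.11 (SE) and an adjusted p of 0.172 in edgeR. The fasting libraries were all above the ad libitum libraries for Kcnk9. Kcnk3, the other TASK channel, had 36.6, 31.3 and 37.6 CPM under fasting, against 36.3, 24.8 and 27.8 CPM with ad libitum feeding, and the groups overlapped. Gm9899 overlaps an exon of Kcnk3 on the opposite strand and averaged 10.3 CPM under fasting and 7.06 CPM with ad libitum feeding. Kcnk1, a weak leak channel and the K2P gene of highest level per length, averaged 64.3 ± 1.16 CPM under fasting and 64.4 ± 9.74 CPM with ad libitum feeding (SD, n = 3 each).

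The inward rectifiers of dopaminergic neurons showed no called difference. Kcnj6, the G protein-gated subunit that dopaminergic neurons of the substantia nigra express most strongly, had 19.7, 20.5 and 18.1 CPM under fasting, against 20.7, 16.7 and 25.1 CPM with ad libitum feeding. The ad libitum libraries lay on both sides of the fasting ones, and the log2 fold change was -0.10 ± 0.15 (SE), with an adjusted p of 0.725 in edgeR. Kcnj9, another G protein-gated subunit, had 146, 91.3 and 122 CPM under fasting, against 135, 37.6 and 67.0 CPM with ad libitum feeding, so that its 2 lowest libraries were ad libitum ones while ad libitum replicate 1 lay among the fasting libraries. Kcnj5 averaged 4.87 ± 0.532 CPM under fasting and 4.97 ± 2.41 CPM with ad libitum feeding (SD, n = 3 each). Kcnj11, the pore of the ATP-sensitive channel, had 33.9, 38.3 and 32.6 CPM under fasting, against 41.2, 36.8 and 36.3 CPM with ad libitum feeding, with a log2 fold change of -0.13 ± 0.08 (SE) and an adjusted p of 0.443 in edgeR. Abcc8, the sulfonylurea receptor that completes this channel, averaged 29.1 ± 1.26 CPM under fasting and 25.3 ± 7.6 CPM with ad libitum feeding (SD, n = 3 each), and it was chosen after its values were seen. Kcnj6 and Kcnj5 were highest in ad libitum replicate 3, as were the summed dopaminergic markers, whereas Kcnj9, Kcnj11 and Abcc8 were not. The summed markers were next highest in fasting replicate 2. Kcnj6 was next highest in ad libitum replicate 1 instead, and Kcnj5 in fasting replicate 1. The part of dopaminergic content in these levels was not tested.

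Pacemaker channels were likewise not called. Kcnn3, the SK channel that follows each spike in dopaminergic neurons, had 72.4, 54.0 and 55.1 CPM under fasting, against 58.8, 48.8 and 63.9 CPM with ad libitum feeding, with a log2 fold change of 0.08 ± 0.15 (SE) and an adjusted p of 0.792 in edgeR. Kcnd3, the Kv4 pore of the A-type current that slows the approach to threshold, had 159.6, 172 and 146 CPM under fasting, against 177, 114 and 232 CPM with ad libitum feeding, and the 2 extreme values were both in ad libitum libraries. Its log2 fold change was -0.13 ± 0.25 (SE), with an adjusted p of 0.808 in edgeR. Kcnd3 was highest in ad libitum replicate 3, as were the summed dopaminergic markers, whereas Kcnn3 was highest in fasting replicate 1. The summed markers were next highest in fasting replicate 2, and Kcnd3 in ad libitum replicate 1. The part of dopaminergic content in these levels was not tested. The KChIP subunits that assemble with Kv4 were not called either, with Kcnip3 at 71.7 ± 4.05 CPM under fasting and 74.4 ± 15.8 CPM with ad libitum feeding, and Kcnip4 at 96.3 ± 14.4 CPM under fasting and 77.6 ± 21.6 CPM with ad libitum feeding (SD, n = 3 each). Kcnd2, the Kv4 pore of highest mean level per length, averaged 127 ± 22.7 CPM under fasting and 113 ± 16.8 CPM with ad libitum feeding (SD, n = 3 each). Per length, the library values of Kcnd2 and Kcnd3 overlapped, so their order is not set beyond the spread.

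Among the Kv1 channels of axons, Kcna6 was lower in every fasting library. Kcna6 had 157, 145 and 146 CPM under fasting, against 164, 186 and 169 CPM with ad libitum feeding, with a log2 fold change of -0.21 ± 0.07 (SE) and an adjusted p of 0.160 in edgeR. An antisense transcript, Gm26673, overlaps its exons. Kcna2, the main Kv1 subunit at the juxtaparanodes of myelinated axons, had 453, 469.8 and 433 CPM under fasting, against 625, 368 and 458 CPM with ad libitum feeding, so that its ad libitum libraries held both the highest and the lowest value. Kcnab2, the cytoplasmic beta subunit that binds Kv1 channels, averaged 395 ± 14 CPM under fasting and 374 ± 78.9 CPM with ad libitum feeding (SD, n = 3 each). Like Kcna6, 6 of 6 oligodendrocyte markers were lower in every fasting library, as were 15% of all tested genes, and 0 of the markers were called by edgeR. They summed to 9434, 11839 and 10114 CPM under fasting, against 13373, 18182 and 13352 CPM with ad libitum feeding. Both Kcna6 and the markers were highest in ad libitum replicate 2. Within the fasting group the order differed, since Kcna6 was highest in replicate 1, where the summed markers were lowest. The part of oligodendrocyte content in these levels was not tested.

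Kv3, Kv7 and BK pores were not called. Kcnc1, a Kv3 channel that allows fast firing, averaged 382 ± 6.89 CPM under fasting and 391.99 ± 92.6 CPM with ad libitum feeding. Kcnq3, a Kv7 subunit of the M current that brakes repeated firing, averaged 205 ± 37.9 CPM under fasting and 190.2 ± 57.2 CPM with ad libitum feeding. Kcnma1, the BK pore, averaged 225 ± 31.4 CPM under fasting and 194 ± 36.6 CPM with ad libitum feeding. All of these means are over 3 libraries with SD, and in each of these genes the groups overlapped.

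All 3 ERG genes and all 3 genes of the Slack and Slo3 group had log2 fold changes above 0, and none was called. Of all tested genes, 49.1% were above 0. In Kcnh2, Kcnh7 and Kcnh5 the 2 lowest libraries were ad libitum replicates 2 and 3, and ad libitum replicate 1 lay among the fasting libraries. Kcnh2, the member of the EAG family with the highest level per length, had 98.4, 87.1 and 95.6 CPM under fasting, against 90.3, 70.8 and 76.0 CPM with ad libitum feeding, with a log2 fold change of 0.25 ± 0.10 (SE) and an adjusted p of 0.223 in edgeR. Kcnh7, the other ERG gene, averaged 50.002 ± 6.48 CPM under fasting and 39.2 ± 9.36 CPM with ad libitum feeding, and Kcnh5, an EAG channel, averaged 11.995 ± 1.67 CPM under fasting and 8.71 ± 3.1 CPM with ad libitum feeding (SD, n = 3 each). Kcnt1, a channel opened by intracellular sodium, had 132, 140.1 and 149 CPM under fasting, against 113, 131 and 121 CPM with ad libitum feeding, with a log2 fold change of 0.20 ± 0.08 (SE) and an adjusted p of 0.198 in edgeR. Its fasting libraries were all above its ad libitum libraries.

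Modifier, MinK family and BK beta subunits, SK channels and a noncoding transcript gave mixed results. Kcng2, a silent subunit, was higher in every fasting library, at 2.87, 2.98 and 3.67 CPM under fasting, against 2.39, 2.73 and 2.37 CPM with ad libitum feeding, with a log2 fold change of 0.35 ± 0.15 (SE) and an adjusted p of 0.268 in edgeR. Kcnn1, an SK channel, was lower in every fasting library, at 11.3, 12.2 and 11.9 CPM under fasting, against 13.9, 12.3 and 12.7 CPM with ad libitum feeding, with an adjusted p of 0.374 in edgeR. Kcnmb1, the BK beta subunit of smooth muscle, averaged 1.07 ± 0.436 CPM under fasting and 0.548 ± 0.0698 CPM with ad libitum feeding (SD, n = 3 each), with overlapping groups and an adjusted p of 0.195 in edgeR. Kcnf1 averaged 48.3 ± 15.1 CPM under fasting and 31.3 ± 14.9 CPM with ad libitum feeding, Kcns3 averaged 12.1 ± 1.73 CPM under fasting and 11.8 ± 1.93 CPM with ad libitum feeding, and Kcne1l averaged 7.79 ± 0.59 CPM under fasting and 9.58 ± 2.00 CPM with ad libitum feeding (SD, n = 3 each). Kcnn2 averaged 33.3 ± 0.533 CPM under fasting and 34.9 ± 6.84 CPM with ad libitum feeding. The imprinted noncoding transcript Kcnq1ot1 had 62.9, 56.2 and 61.8 CPM under fasting, against 67.8, 60.3 and 62.8 CPM with ad libitum feeding, and the groups overlapped.

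The levels of the potassium channel genes were also ordered per transcript length, as transcripts per 1000000 (TPM) computed with the longest GENCODE M21 transcript of each gene. The beta subunit gene Kcnab2 led the order, at 275 ± 9.86 TPM under fasting and 256 ± 53.9 TPM with ad libitum feeding (SD, n = 3 each), and its libraries lay above those of every other member. The Kv3 gene Kcnc1 averaged 135 ± 2.47 TPM under fasting and 136 ± 32.0 TPM with ad libitum feeding, and the Kv3 gene Kcnc2 averaged 124 ± 26.4 TPM under fasting and 99.8 ± 46.4 TPM with ad libitum feeding (SD, n = 3 each). The library values of Kcnc1 and Kcnc2 overlapped, so their order is not set beyond the spread. Kcna2, Kcnip4, Kcna1, Kcnab3 and Kcnk1 were also among the 10 genes of highest level, and those 10 held 48.5% of the summed level of the members. Of the 83, 46 were above 10 TPM and 8 were below 1 TPM.

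**Figure D3:**
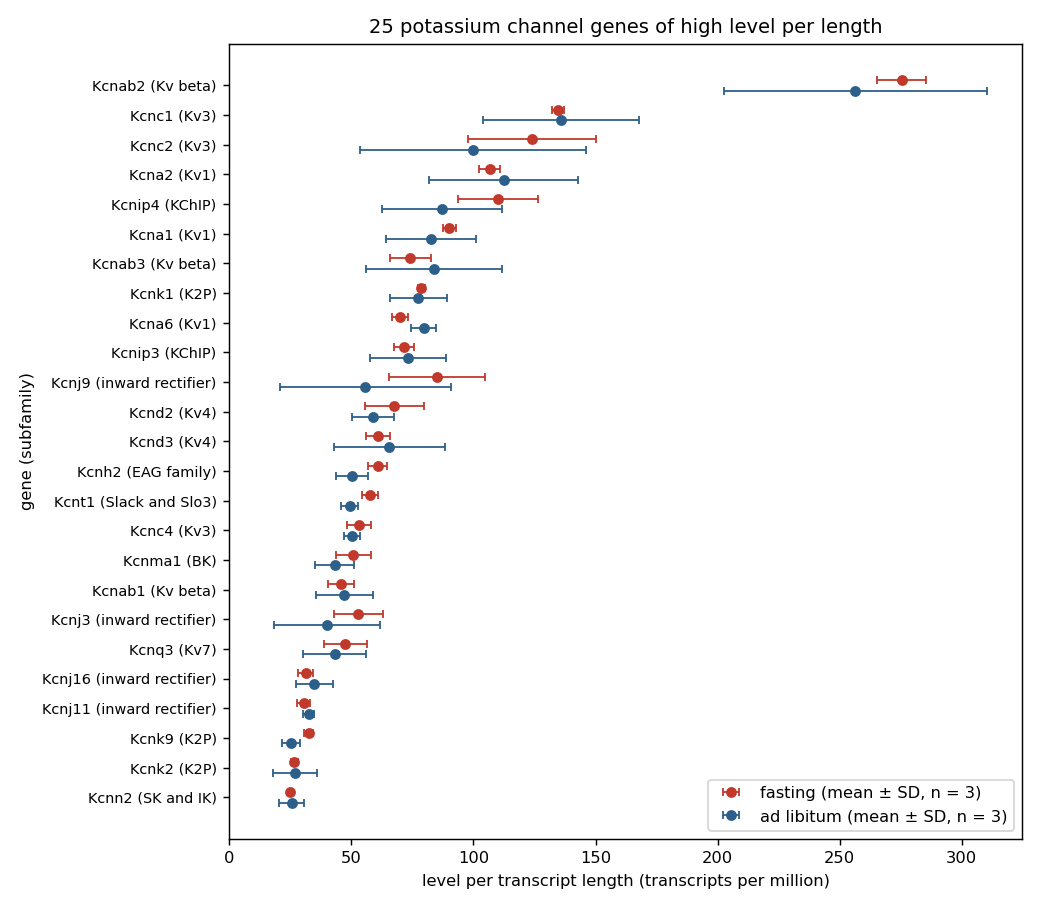
Level per transcript length, in TPM, of 25 potassium channel genes of high level in order of their mean. Points and bars are the mean ± SD of the 3 fasting and the 3 ad libitum libraries, and Kcnab2 leads at 275 TPM under fasting and 256 TPM with ad libitum feeding.

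Levels of the members varied more between the ad libitum libraries than between the fasting ones. The median SD of log2 CPM was 0.19 under fasting and 0.33 with ad libitum feeding over the 83 members, and 0.10 under fasting and 0.15 with ad libitum feeding over all tested genes. The SD was larger in the ad libitum group for 67 of 83 members (80.7%), against 67.3% of all tested genes. Some members were high in ad libitum replicate 2 alone. Kcne2, Kcnh3, Kcnh4, Kcnip2, Kcnj13, Kcnj4 and Kcnv1 were over 2-fold above every other library there, as were 153 of all tested genes. Kcnh3, an ELK channel of forebrain neurons, had 3.50, 2.47 and 6.18 CPM under fasting, against 3.43, 30.0 and 4.66 CPM with ad libitum feeding. Mcrs1 overlaps an exon of Kcnh3 on the opposite strand, at a mean of 35.1 CPM under fasting and 37.5 CPM with ad libitum feeding. Kcnip2, a KChIP subunit, had 11.1, 9.66 and 15.6 CPM under fasting, against 9.29, 67.9 and 11.8 CPM with ad libitum feeding. These genes and those in the next paragraph, apart from those already named by the rule, were chosen after their values were seen.

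Other members were low in ad libitum replicates 2 and 3 together, and no other pair of libraries held the 2 lowest values as often. They did so for 25 of 83 members (30.1%), against 15.2% of all tested genes. Among the 25 were the Kv3 genes Kcnc1 and Kcnc2, the Kv7 gene Kcnq3, the G protein-gated Kcnj3 and Kcnj9, the BK pore Kcnma1 and the leak channels Kcnk1, Kcnk3, Kcnk4, Kcnk9 and Kcnk12. The EAG family genes Kcnh2, Kcnh5 and Kcnh7 were among the 25 too. Kcnc2, which serves fast-firing neurons, had 283, 189 and 215 CPM under fasting, against 285, 116 and 162 CPM with ad libitum feeding. Kcnj3 had 118, 80.2 and 105 CPM under fasting, against 125, 44.5 and 63.3 CPM with ad libitum feeding. In both genes ad libitum replicate 1 was at the height of the fasting libraries. The summed thalamic markers given above were lowest in the same ad libitum replicates 2 and 3. This held for Prkcd, Lef1 and Plekhg1, whereas Tcf7l2 was at 198, 129 and 127 CPM under fasting, against 216, 14.2 and 202 CPM with ad libitum feeding, low in ad libitum replicate 2 but not in replicate 3. Glutamatergic markers also summed lowest in ad libitum replicates 2 and 3, at 265 and 267 CPM, against 455 to 580 CPM elsewhere. Markers of all neurons did so too, at 4308 and 4941 CPM, against 5117 to 5623 CPM elsewhere. Of these, Snap25 followed the sum, whereas Rbfox3, Syt1, Nefl, Stmn2 and Map2 did not. Summed GABAergic markers were lowest in fasting replicates 1 and 2. The part of dissection or of neuronal content in the levels of the members was not tested.

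**Figure D4:**
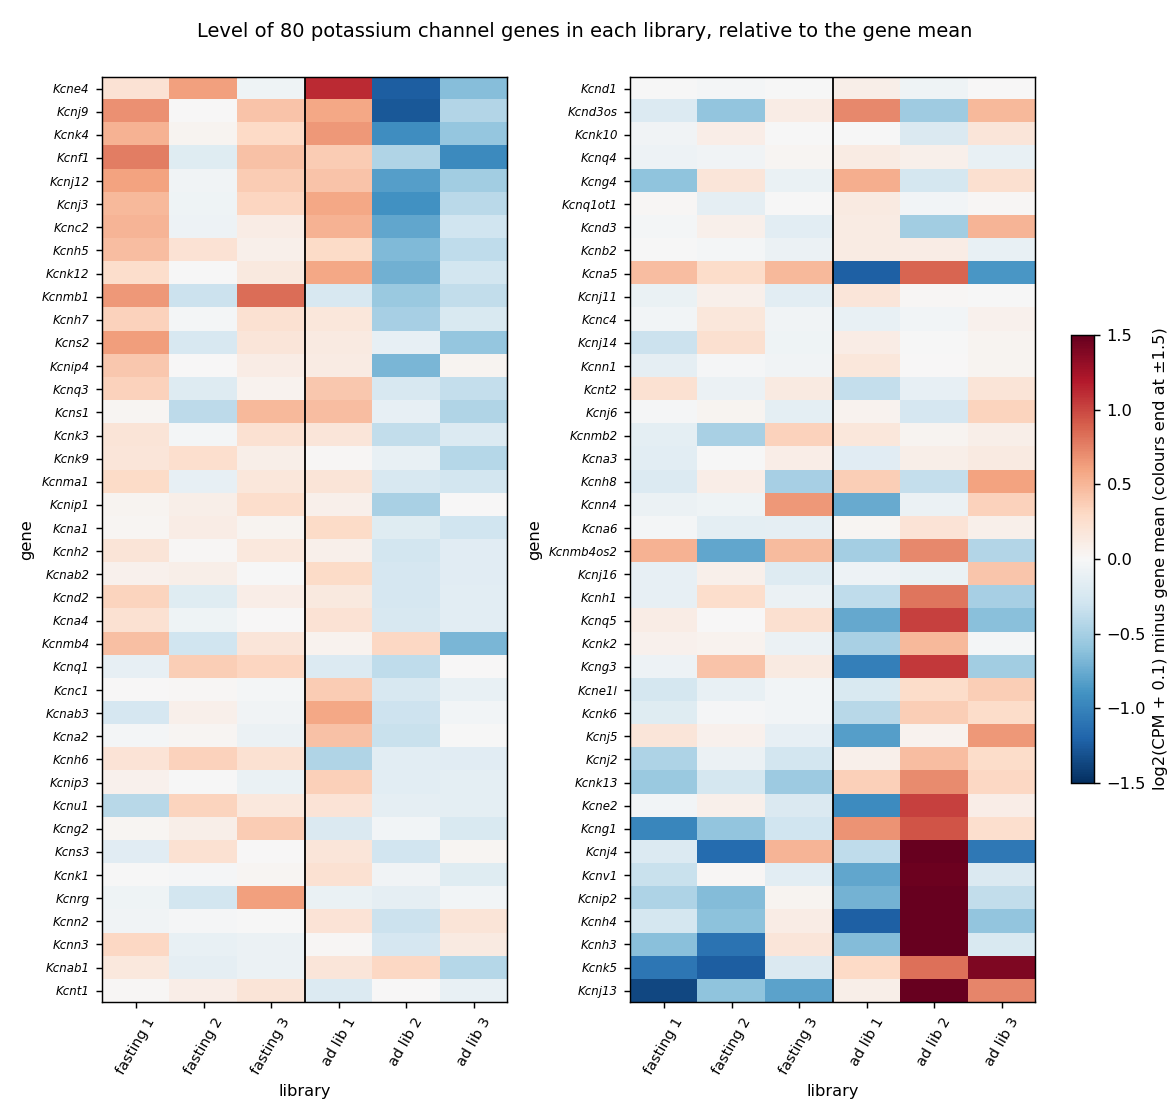
Log2(CPM + 0.1) of 80 of the 83 potassium channel genes in each of the 6 libraries, relative to the mean of the gene, with fasting libraries left of ad libitum libraries. Ad libitum replicates 2 and 3 are the lowest 2 libraries for 25 of the 83 genes, not all of them drawn, and 7 genes stand over 2-fold above all other libraries in ad libitum replicate 2.

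**Figure D5:**
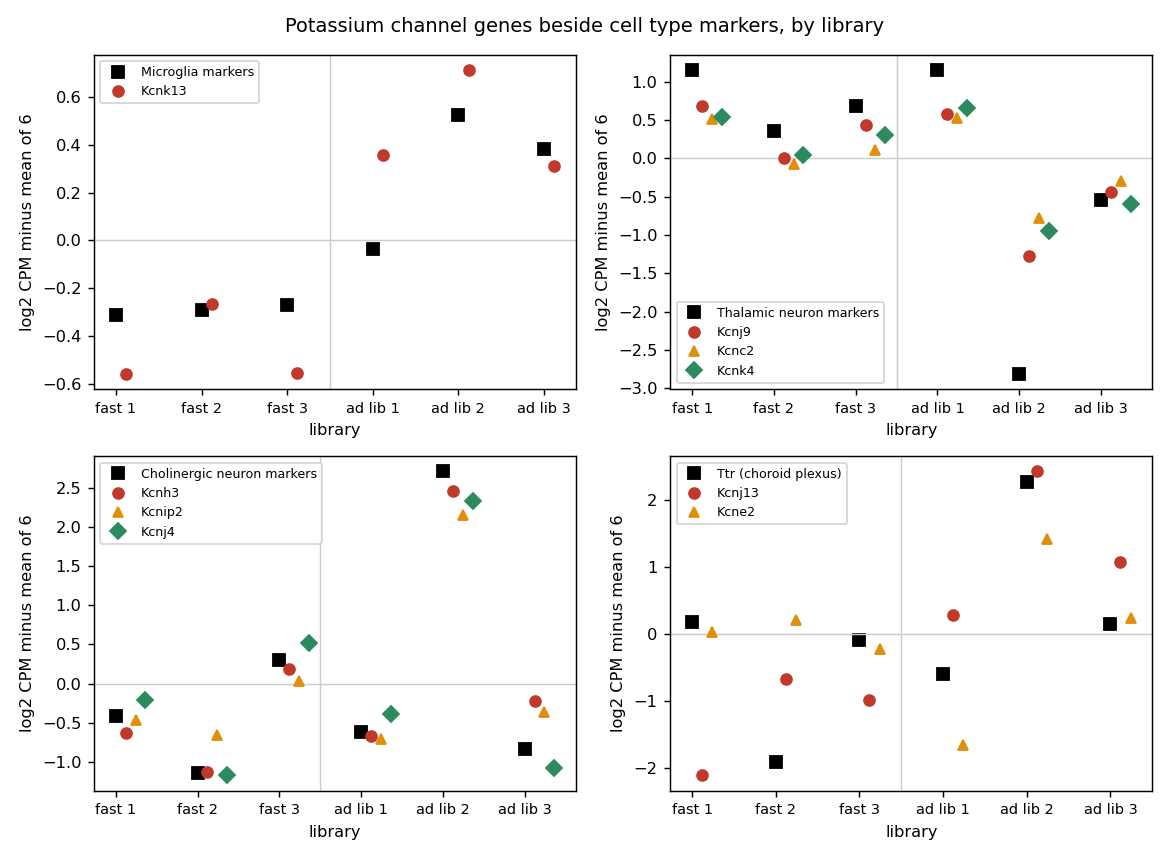
Log2 CPM, relative to the mean of the 6 libraries, of chosen potassium channel genes (coloured) and of summed marker lists or Ttr (black squares) in each library, with fasting libraries left of ad libitum libraries. Kcnk13 and the microglial markers are lower in all 3 fasting libraries, while summed thalamic markers are lowest in ad libitum replicates 2 and 3, at 81.6 and 394 CPM.

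Which members were called depended on the setting and on single libraries of both diets. Of all tested genes, 0.167% were called by limma-voom, and edgeR called 0.44% with median-of-ratios scaling, 0.0523% with total count only, 0.421% without a filter, 0.533% when genes had to average 50 counts and 0.0471% without robust shrinkage, with 0 members in each of these. Without fasting replicates 1, 2 and 3 and ad libitum replicate 3, the counts of members were 0 too, with 0%, 0.354%, 0% and 0.00521% of all tested genes called by edgeR. Without ad libitum replicate 1, edgeR called 8 members, 9.64% against 6.18% of all genes tested in that fit. These were Kcnk5, Kcnj2, Kcnk13 and Kcnj13, lower under fasting, and the stretch-gated leak channel Kcnk4, Kcnh5, Kcnh2 and the axonal Kv1 channel Kcna1, higher under fasting. Without ad libitum replicate 2, edgeR called 2 members, 2.41% against 0.235% of all genes tested, both higher under fasting, Kcnq5 with a log2 fold change of 0.82 and Kcna5 with 1.48. Kcnq5, a subunit of M channels, had 26.2, 24.3 and 28.5 CPM under fasting, against 14.2, 49.5 and 15.6 CPM with ad libitum feeding, and its log2 fold change over all 6 libraries was -0.0048. Kcna5 had 6.34, 5.57 and 6.48 CPM under fasting, against 1.91, 8.49 and 2.46 CPM with ad libitum feeding. For both genes the fasting libraries lay close together and between the ad libitum values. Kcnk4, Kcna1, Kcnq5 and Kcna5 were picked after their values were seen.

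None of the listed genes that work with potassium channels was called. Of 25 listed partners and accessory subunits, 23 were in the table and tested, 0 were called by edgeR, 4 had an unadjusted p below 0.05, and 13 lay above and 10 below 0. Of 17 potassium pumps and cotransporters, 0 were called by edgeR, 8 had an unadjusted p below 0.05, and 7 lay above and 10 below 0. The share of all tested genes at that unadjusted p was 20.4%. Cntn2, a cell adhesion protein that holds Kv1 channels at juxtaparanodes, had 286, 327 and 295 CPM under fasting, against 403, 438 and 386 CPM with ad libitum feeding, with a log2 fold change of -0.43 ± 0.08 (SE) and an adjusted p of 0.0638 in edgeR. Its partner there, Cntnap2, had 246, 228 and 229 CPM under fasting, against 194, 209.8 and 184 CPM with ad libitum feeding, with a log2 fold change of 0.26 ± 0.07 (SE) and an adjusted p of 0.111 in edgeR. Both genes kept the groups apart, in opposite directions. Slc12a2, a cotransporter that brings potassium into cells, averaged 170.2 ± 14.1 CPM under fasting and 243 ± 32.0 CPM with ad libitum feeding (SD, n = 3 each), and Fxyd6, a regulator of the sodium pump, averaged 89.8 ± 4.93 CPM under fasting and 52.5 ± 12.4 CPM with ad libitum feeding (SD, n = 3 each), with adjusted p-values of 0.0741 and 0.0892 in edgeR. Cntn2, Slc12a2 and the summed oligodendrocyte markers were lower in every fasting library, and each was highest in replicate 2 of both diets. Of all tested genes, 15% were lower in every fasting library. Cntnap2 and Fxyd6 were instead higher in every fasting library. The part of cell content in these levels was not tested. DESeq2 called 8 of these 40 partner and transport genes, and 7.25% of all genes.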

How the data were processed

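The values deposited by the authors are estimated counts of 19251 genes in 6 libraries, all whole numbers and unscaled. The tools named are Salmon and, at version 1.40.2, DESeq2, and the build is GRCm39 (mm39), per the submitters' processing notes, which state neither role nor order. The Salmon version, annotation release, use of strand and way of rounding are not given. A directional library kit was used, per the labels' protocols.

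From these estimated counts, filterByExpr in edgeR 4.0.16 (R 4.3.3) retained 19109 genes, and 142 were not tested. With TMM factors, the diets were compared by edgeR's quasi-likelihood test (two-sided, robust, no covariate), with Benjamini-Hochberg adjustment over all tested genes. Standard errors are the size of the log2 fold change over the square root of F. Alternatives were DESeq2 1.42.0, limma-voom (limma 3.58.1), other scalings and filters, no robust shrinkage, a replicate block and leaving out each library. The fits were tested on simulated data. The depth of 42990234 to 48179706 counts per library differed little, and the spread between libraries set the precision. Within each group all pairs of libraries differed by more than counting error (chi-square per degree of freedom of at least 8.19).

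TPM values used the longest transcript of each gene in GENCODE M21, on another build, so no coordinates come from it. Motifs were searched on both strands of RefSeq promoters (GRCm38.p6). Protein sequences were not analysed here.

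The members and all lists were chosen with earlier results of these data known. Named members were those called, the 8 of smallest p in each direction, a list of channels known from dopaminergic neurons, axons and excitability, and the member of highest level per length in each subfamily, and for each partner list the 2 genes of smallest p. A few of these genes are left out of the text and the figures. Any other gene was chosen after its values were seen.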

Additional observations from a re-analysis of the deposited data

How the results depend on the processing

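The median log2 fold change of the members moved only between -0.02 and 0.10 over all alternatives, and 9 of the 10 genes of highest level per length were the same with exon union length. The count of members called, 1 of 83 in edgeR, was 6 with DESeq2, which called 7.25% of all genes, and 0 with limma-voom, median-of-ratios scaling, total count only, no filter, a mean count of at least 50 (73 members tested) or no robust shrinkage. In those 6 settings the adjusted p of Kcnk13 ran from 0.0501 to 0.0685 and its direction was kept. With each library left out in turn, the count of members ran from 0 to 8, and that of partner and transport genes from 0 to 10. DESeq2 called 8 partner and transport genes, against 0 in edgeR. Whether the replicate numbers pair the libraries is not stated. Correlations between same-numbered libraries were 0.206, -0.0386 and -0.106, and those between differently numbered libraries ran from -0.136 to 0.194. With so few libraries these values cannot settle it. With a replicate block, 4 members and 3 partner and transport genes were called, with 1.49% of all tested genes. Fold changes near 0 changed sign. With limma-voom Kcnj5 was at 0.087, Kcnk1 at 0.0069 and Kcnq5 at 0.24, with total count only Kcnk1 was at 0.0017, and with the replicate block Kcnj5 was at 0.076, Kcnk1 at 0.0067 and Kcnq5 at 0.25. With each library left out in turn, the sign also changed for Kcna1 (-0.014 to 0.30), Kcna2 (-0.27 to 0.13), Kcnab2 (-0.029 to 0.26), Kcnc1 (-0.16 to 0.17), Kcnd3 (-0.37 to 0.13), Kcnip3 (-0.15 to 0.14), Kcnj5 (-0.34 to 0.37), Kcnj6 (-0.24 to 0.052), Kcnk1 (-0.091 to 0.12), Kcnn2 (-0.23 to 0.017), Kcnn3 (-0.075 to 0.17), Kcnq3 (-0.045 to 0.38), Kcnq5 (-0.31 to 0.82) and Kcns3 (-0.084 to 0.15). For Kcnh4 (-2.05 to 0.71), Kcnip2 (-1.72 to 0.20), Kcnj4 (-1.68 to 0.56) and Kcnv1 (-1.03 to 0.32), the sign changed without ad libitum replicate 2. The causes were not tested. Kcnk5 and Kcnj13 rest on under 100 counts per library. Overlapping exons limit the 27 members that share them on the opposite strand, Kcnj13, Kcna6, Kcnh3 and Kcnk3 among them. Kcnab2 and Kcnk4 have such an overlap on the same strand, with Gm16334 and Catsperz. Of their 31-base words, 1.68% and 14.7% occur in transcripts of other genes.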
